A study of Mus musculus with 7 samples.

Results

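The miR-290 and miR-302 clusters are groups of microRNA (miRNA) genes that are best known from pluripotent mouse cells. The loci described here are the ATAC-seq peaks lying within 20 kb of the clusters that hold 8 listed genes, *Mir293*, *Mir294* and *Mir295* of the miR-290 cluster and *Mir302a*, *Mir302b*, *Mir302c*, *Mir302d* and *Mir367* of the miR-302 cluster. The members were chosen by gene name and position and by no measured value, although earlier results of these data were known. In the mm10 GENCODE annotation, where miRNA genes at most 10 kb apart were joined into a cluster, the 8 genes are 8 of 2202 miRNA genes and fell into 2 of 1802 clusters. The windows around them held 28 of the 293147 peaks of all libraries, which merged into 8 of 104346 regions when touching or overlapping peaks were joined.

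The data came from an ATAC-seq time course of reprogramming, in which Tn5 transposase cuts accessible DNA in nuclei and the cut fragments are sequenced. Mouse embryonic fibroblasts (MEFs) carried a *Col1a1* allele with tetO-driven *Pou5f1*, *Klf4*, *Sox2* and *Myc* (OSKM) and an rtTA allele, rtTA*M2, at the ROSA 26 locus. MEFs were taken without doxycycline on day 0 and after 1, 2, 3, 6 and 9 days of doxycycline at 2 µg/mL, and untreated Bruce-4 embryonic stem cells (ESCs) formed the end point. Every time-point was 1 library, so values are given without a test between libraries. The genotype label of the ESC library is that of the MEFs, which means that all 7 libraries carry the same genotype entry, while Bruce-4 is given as its cell line. The ESCs are 1 established line, and the reprogramming cultures were mixed populations taken without a sort named in the labels, so that a gained peak cannot be assigned to a share of the cells.

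miRNAs are short RNAs cut from hairpins by Drosha and Dicer, and they repress messenger RNAs that pair with their seed, bases 2 to 8 from the 5′ end. The miR-290 and miR-302 clusters are each transcribed as a long primary RNA. The former is characteristic of naive ESCs and the early embryo and the latter of the later, primed state of the epiblast, and they share a seed family that promotes passage through the cell cycle and enhances reprogramming when supplied to fibroblasts. Oct4 and Sox2 are known to bind near both clusters in ESCs.

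The mature sequences show which members share a seed and which do not. All 14 miRNA genes of both clusters, including the 8 listed ones, had at least 1 mature sequence in RefSeq on GRCm38.p6, and all 26 sequences matched the genome at their positions. The seed AAGUGCU was carried by 5 of them and by no other of the 1738 mature miRNAs of the table. The miRNAs with this seed, in capitals, are given here because they tie both clusters together.
miR-291a-3p: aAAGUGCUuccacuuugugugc
miR-294-3p: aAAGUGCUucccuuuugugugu
miR-295-3p: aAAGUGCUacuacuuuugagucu
miR-302b-3p: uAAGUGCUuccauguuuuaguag
miR-302d-3p: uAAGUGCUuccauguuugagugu

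The other 3′ arms of listed members in the table were shifted or unrelated. In miR-302c-3p the same letters began at the first base, so that its seed by position was AGUGCUU, and in miR-293-3p the seed was GUGCCGC. miR-367-3p had the seed AUUGCAC, which it shared with 5 other miRNAs in the table, miR-25-3p, miR-32-5p, miR-92a-3p, miR-92b-3p and miR-363-3p. The arms miR-302a-3p, of a listed member, and miR-292a-3p were not among the sequences used here. Their seeds were therefore not compared, and the seed family of the clusters may be larger than shown. The arms miR-302c-3p, miR-293-3p and miR-367-3p are shown so that the shift of the seed in capitals can be seen.
miR-302c-3p: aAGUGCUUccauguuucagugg
miR-293-3p: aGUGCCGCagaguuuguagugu
miR-367-3p: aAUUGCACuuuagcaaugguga

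On the 5′ arms, the seed CUUUAAC was shared by miR-302b-5p, miR-302c-5p and miR-302d-5p, while CUCAAAC was shared by miR-290a-5p, miR-292a-5p and miR-293-5p. No 5′ arm seed was shared between both clusters. The 6 letters AAGUGC occurred within the first 9 bases of 9 mature miRNAs of both clusters and of 19 in the whole table. The other 10 included miR-17-5p, miR-20a-5p, miR-93-5p and miR-106a-5p of the proliferation-linked miR-17 family, in which the letters began 1 base later, at base 3.

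The miR-290 cluster spans chr7:3218626-3220841 in mm10, 2216 bp with 9 miRNA genes. *Mir290a* comes first and *Mir295* last on the plus strand, and *Mir290b* and *Mir292b* are annotated on the minus strand. The 3 listed members *Mir293*, *Mir294* and *Mir295* overlap the protein-coding gene *Nlrp12*, a member of the NLR family of innate immune sensors that runs on the minus strand. The miR-302 cluster spans chr3:127545228-127545807, 580 bp with 5 plus-strand genes in the order *Mir302b*, *Mir302c*, *Mir302a*, *Mir302d* and *Mir367*. It lies in an intron of the minus-strand gene *Larp7*, whose protein binds the 7SK RNA. RefSeq also gives a plus-strand long non-coding RNA at each cluster. *Gm51018*, at chr3:127545089-127546903, spans the whole miR-302 cluster. *D7Ertd143e*, at chr7:3218784-3221015, starts inside the miR-290 cluster, after *Mir290a* and *Mir290b*, and so does not span it.

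A region is called open in a library when that library has a called peak in it. Around the miR-290 cluster, peaks were absent in MEFs, present upstream from day 1 and present on both sides in ESCs. The window of 42216 bp held 0 peaks at day 0, 3 at day 1, 2 at day 2, 3 on each of days 3, 6 and 9, and 5 in ESCs. These peaks covered 0 bp at day 0, 904 bp at day 1, 855 bp at day 2, 1594 bp at day 3, 1539 bp at day 6, 902 bp at day 9 and 2560 bp in ESCs. No order by day appeared in the covered length, since day 9 lay at the level of days 1 and 2, and the ESC value was the highest. The peaks of days 1 to 9 all lay before the cluster, whereas ESCs had 3 before it and 2 after it.

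Around the miR-302 cluster, the libraries differed less, and only ESCs had a peak at the miRNAs themselves. The window of 40580 bp held 1 peak in every library from day 0 to day 9 and 3 peaks in ESCs. The covered length was 881 bp at day 0, 922 bp at day 1, 546 bp at day 2, 895 bp at day 3, 808 bp at day 6, 848 bp at day 9 and 1235 bp in ESCs. Outside ESCs the peak was always the same one, at the promoters of *Larp7* and *Zgrf1*, and it lay 6883 to 7250 bp past the cluster.

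**Figure D1:**
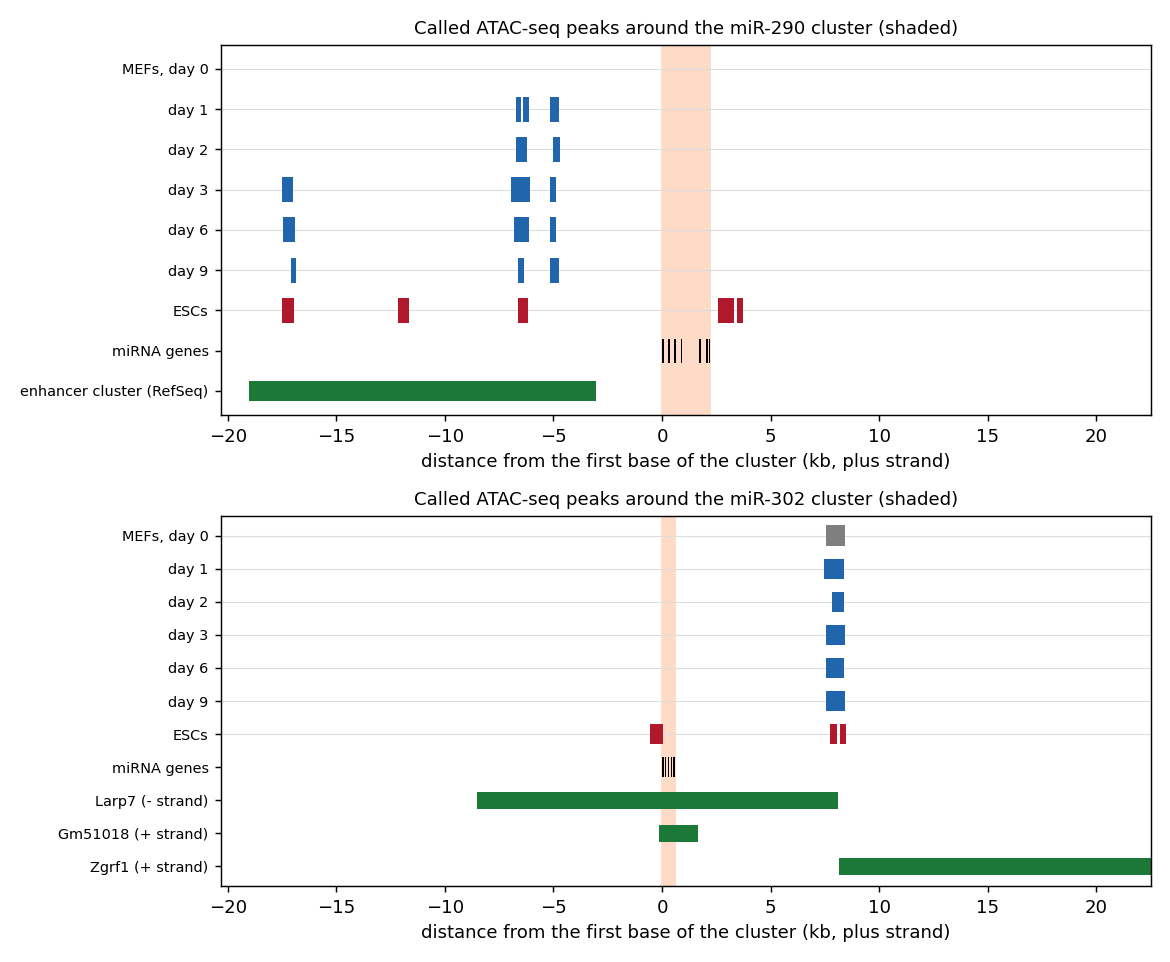
Called ATAC-seq peaks around the miR-290 cluster (top) and the miR-302 cluster (bottom), with 1 row per library and the distance from the first base of the cluster in kb on the x axis. Bars are peaks drawn to scale, the shaded band is the cluster, black ticks are miRNA genes and green bars are RefSeq features, and the 5 ESC peaks of the miR-290 window lie on both sides of the cluster while those of days 1 to 9 lie on its left side.

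These counts stand against those at all miRNA clusters, whose share with a peak within 20 kb was highest in the library with the most peaks, day 0, and lowest in that with the fewest, ESCs. Of 1802 clusters, 66.2% had a peak at day 0, 59.2% at day 1, 52.1% at day 2, 61.2% at day 3, 59.5% at day 6, 53.5% at day 9 and 50.5% in ESCs. The 95% exact (Clopper-Pearson) interval was 64.0 to 68.4% on day 0 and 48.2 to 52.8% in ESCs, and it covers counting error only. When all lists were cut to their 27074 widest peaks, the length of the ESC list, the share lay between 48.7 and 50.5% in all 7 libraries. The miR-290 cluster, without a peak on day 0 and with one in ESCs, belonged to 104 clusters, 5.77% of all. With a peak at every later time-point as well, it was 1 of 11 clusters, or 0.610%. Both clusters had more peaks in ESCs than on day 0, as 181 clusters did, or 10.0%. At least 5 ESC peaks, the number at miR-290, were found at 13 clusters, or 0.721%, and at least 3, the number at miR-302, at 161, or 8.93%. Of the 3 ESC peaks at miR-302, 2 lay in the region at the *Larp7* and *Zgrf1* promoters, which held 1 peak on day 0, so this count rests partly on a split of that peak. The miR-302 cluster itself had a peak nearby in all 7 libraries.

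**Figure D2:**
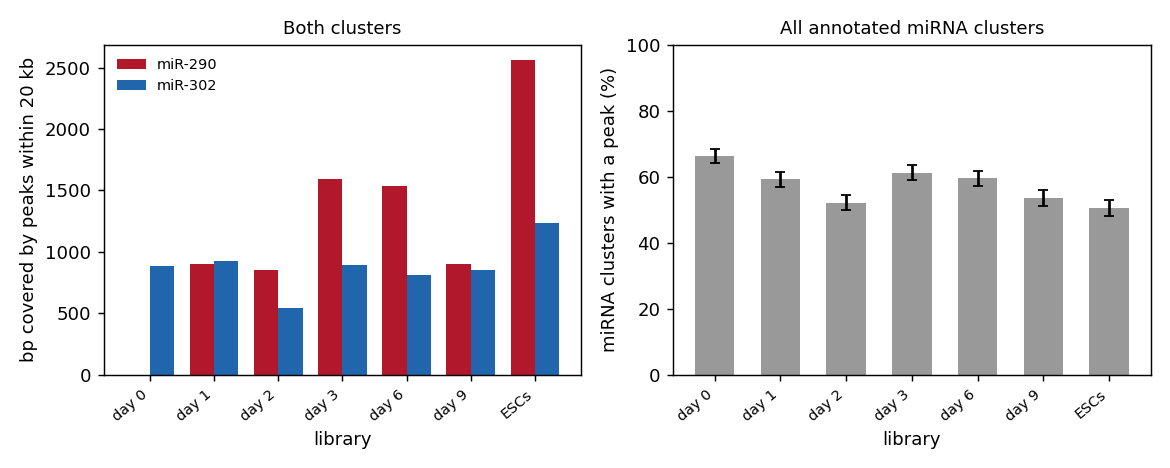
Left, bp covered by called peaks within 20 kb of the miR-290 and miR-302 clusters in each library, and right, the share of all 1802 annotated miRNA clusters with a peak within 20 kb, with exact 95% intervals as error bars. The covered length at miR-290 went from 0 bp on day 0 to 2560 bp in ESCs. The share over all clusters, a different measure, went from 66.2% to 50.5%. With all lists cut to equal length, which is not drawn, that share was 50.2% on day 0 and 50.5% in ESCs.

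The nearest peak brings this down to each member. For *Mir295*, the last gene of the miR-290 cluster, the nearest peak was 26346 bp away at day 0, 6880 bp at day 1, 6861 bp at day 2, 7048 bp at day 3, 7045 bp at day 6, 6887 bp at day 9 and 357 bp in ESCs. It lay upstream in every library but ESCs, where it lay downstream. *Mir293* and *Mir294* followed the same course, with 25916 and 26214 bp on day 0, between 6431 and 6916 bp on days 1 to 9, and 776 and 474 bp in ESCs. No library had a peak over any of the 9 miRNA genes of the miR-290 cluster.

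For *Mir302b*, the first gene of the miR-302 cluster, the nearest peak was 7477 bp away at day 0, 7389 bp at day 1, 7756 bp at day 2, 7477 bp at day 3, 7503 bp at day 6, 7487 bp at day 9 and 0 bp in ESCs. The value of 0 bp marks an overlap, and *Mir302b* was the one member of 8 with a peak over it in any library. The same ESC peak ended 112 bp before *Mir302c*, 245 bp before *Mir302a*, 373 bp before *Mir302d* and 482 bp before *Mir367*. In the other 6 libraries, the nearest peak to these 4 genes lay downstream at 6883 to 7627 bp.

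The 6 merged regions of the miR-290 window, numbered from left to right, came in 4 patterns of presence. Regions 1 to 4 lay before the cluster in intergenic DNA, and all 4 fell inside chr7:3199611-3215602, a 15992 bp element that RefSeq lists as an enhancer cluster of the miR-290 locus targeted by CRISPR interference. Regions 5 and 6 lay after the cluster.

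Region 3, at chr7:3211690-3212531, was open in the largest number of libraries of the 6 regions, from day 1 to ESCs. Its peaks covered 494 bp at day 1, 526 bp at day 2, 842 bp at day 3, 710 bp at day 6, 260 bp at day 9 and 460 bp in ESCs, and 0 bp at day 0. The day 1 value came from 2 peaks of 225 and 269 bp, and the whole 260 bp of the day 9 peak lay within the peaks of days 2, 3, 6 and ESCs. The midpoint of the region lay at -6.51 kb from the first base of the cluster. Peaks in the same 6 libraries and none on day 0 were found in 788 regions of the genome, or 0.755%.

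Region 4, at chr7:3213445-3213912, was open in each library from day 1 to day 9 and in neither MEFs nor ESCs. Its peaks measured 410 bp at day 1, 329 bp at day 2, 261 bp at day 3, 274 bp at day 6 and 442 bp at day 9, with 142 bp common to all 5. It began 914 bp after region 3, the gap between both regions, and its last base was 4714 bp before *Mir290a*. In ESCs, the nearest peak was 1013 bp away, that of region 3. This pattern, with a peak in the 5 doxycycline libraries alone, was shared by 2959 regions, or 2.84%.

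Region 1, at chr7:3201110-3201751, gained its peak later, with 0 bp on days 0, 1 and 2. It was covered by 491 bp at day 3, 555 bp at day 6, 200 bp at day 9 and 558 bp in ESCs. The day 3 peak lay wholly within the ESC peak and the day 6 peak shared 497 bp with it, but the day 9 peak sat at the right edge and shared 116 bp with the ESC peak and 65 bp with that of day 3. A width of 200 bp is the smallest in each list. Presence from day 3 on was found in 181 regions, or 0.173%, the rarest pattern among the 8 regions.

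Region 2, at chr7:3206462-3206979, was open in ESCs alone, with a peak of 518 bp. It lay 4711 bp from region 1 and from region 3. Regions 5 and 6, at chr7:3221198-3221953 and chr7:3222089-3222356, were also open in ESCs alone, with peaks of 756 and 268 bp that stood 136 bp apart. Both overlap the annotated *Nlrp12* UTR, and region 5 began 357 bp past *Mir295*. Its width was at the percentile 94.6 of all ESC peaks, that of region 6 at 32.6. Regions with a peak in ESCs alone numbered 10180, or 9.76% of all, so this presence was a common one.

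**Figure D3:**
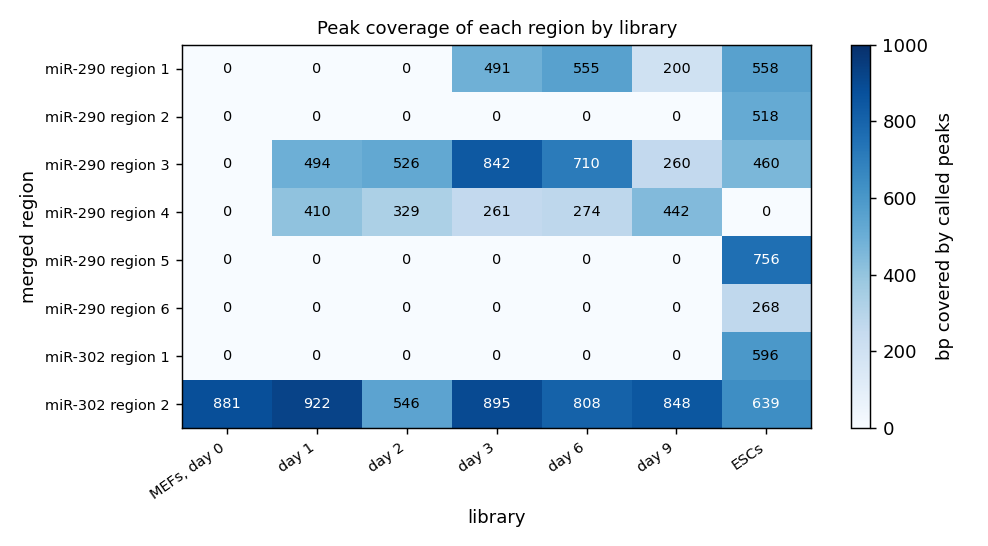
Peak coverage in bp, printed in each cell and shown by the shade, for the 8 merged regions (rows) in the 7 libraries (columns). The day 0 column is 0 bp for all 6 miR-290 regions, region 4 is covered by 261 to 442 bp from day 1 to day 9 and by 0 bp in ESCs, and miR-302 region 2 is covered in every library.

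The miR-302 window held 2 regions. Region 1, at chr3:127544656-127545251, had a peak of 596 bp in ESCs and none in the other 6 libraries, the same common pattern as regions 2, 5 and 6 of miR-290. It lies in the *Larp7* intron and ends inside *Mir302b*, and it holds the annotated start of *Gm51018*, the long non-coding RNA over the cluster. From that start, the nearest peak was 0 bp away in ESCs and 7601 to 7968 bp away in the other libraries. At the other cluster, the start of *D7Ertd143e*, which lies after *Mir290a* and *Mir290b*, had no peak over it in any library. The nearest one was 2414 bp away in ESCs, 4872 to 5059 bp on days 1 to 9 and 24357 bp on day 0.

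Region 2 of the miR-302 window, at chr3:127552690-127553699, was covered in all 7 libraries, as were 10172 regions, or 9.75%. It lies over the divergent starts of *Larp7* and *Zgrf1*, and each of these genes had a peak within 1000 bp of a TSS in 7 of 7 libraries. In ESCs the region held 2 peaks of 361 and 278 bp in place of the single peak of 546 to 922 bp in the other libraries. The antisense gene *Gm43729* was the remaining gene, apart from the miRNAs, with a TSS in a window, and it had no peak within 1000 bp of it in any library.

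The DNA of these regions is given as 300 bases of the plus strand of GRCm38.p6, centred on the ESC peak, or on the widest peak for miR-290 region 4, which has none in ESCs. Letters in capitals match a motif on either strand, among ATGCAAAT (the octamer of POU factors such as Oct4), TTGTNATGC (a composite of Oct4 and Sox2), GGGNGTGG (Klf), CACGTG (Myc), AAGGTCA (Esrrb), TGANTCA (AP-1), GGAATG (Tead), the CTCF motif and TATAAA (the TATA box). The TATA box was added after the sequences had been seen. The Sox motif ACAANG was searched as well but is not capitalised, since 48.9% of the 104248 regions searched held it. The 4 regions upstream of miR-290 are shown to compare region 4, without a called peak in ESCs, with its neighbours.
miR-290 region 1, chr7:3201239-3201538: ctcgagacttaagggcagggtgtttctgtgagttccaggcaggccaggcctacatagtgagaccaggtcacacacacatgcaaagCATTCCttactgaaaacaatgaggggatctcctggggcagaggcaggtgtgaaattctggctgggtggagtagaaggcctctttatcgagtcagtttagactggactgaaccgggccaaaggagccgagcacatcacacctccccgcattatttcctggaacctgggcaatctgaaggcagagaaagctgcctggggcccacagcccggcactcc
miR-290 region 2, chr7:3206571-3206870: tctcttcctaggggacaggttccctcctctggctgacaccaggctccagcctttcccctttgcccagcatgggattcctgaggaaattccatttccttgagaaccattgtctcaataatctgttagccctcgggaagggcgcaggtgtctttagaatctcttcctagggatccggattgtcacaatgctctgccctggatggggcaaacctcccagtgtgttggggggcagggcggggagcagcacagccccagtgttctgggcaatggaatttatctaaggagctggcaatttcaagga
miR-290 region 3, chr7:3212053-3212352: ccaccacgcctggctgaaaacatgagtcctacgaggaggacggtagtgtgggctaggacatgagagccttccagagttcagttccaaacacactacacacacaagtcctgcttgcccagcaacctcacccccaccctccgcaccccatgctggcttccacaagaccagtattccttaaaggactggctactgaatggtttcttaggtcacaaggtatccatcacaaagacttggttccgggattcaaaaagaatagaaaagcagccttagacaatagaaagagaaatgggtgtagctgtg
miR-290 region 4, chr7:3213516-3213815: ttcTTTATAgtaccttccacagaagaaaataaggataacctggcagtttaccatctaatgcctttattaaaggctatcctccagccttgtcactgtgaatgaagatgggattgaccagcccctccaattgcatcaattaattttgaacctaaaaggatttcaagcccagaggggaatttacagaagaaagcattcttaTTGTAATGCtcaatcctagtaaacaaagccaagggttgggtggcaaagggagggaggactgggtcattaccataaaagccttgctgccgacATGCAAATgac

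Region 4, open during doxycycline treatment alone, was the one region of 8 whose window held the composite Oct4-Sox2 motif and the octamer. The composite motif, at chr7:3213714-3213722, lay inside the peaks of all 5 doxycycline libraries, whereas the octamer, at chr7:3213805-3213812, lay inside those of days 1, 2 and 9. Over all regions, 1.45% of windows held the composite motif and 3.16% the octamer. The capitals at its left end match the TATA box on the minus strand. In region 1 the capitals match the Tead motif, held by 21.4% of all windows, and regions 2 and 3 held no capitals and 2 Sox matches each. Among the windows not printed, that of region 5 held 1 match each of the Klf, Myc, AP-1 and Tead motifs, found in 14.7%, 4.96%, 22.1% and 21.4% of windows. That of region 6 held 1 CTCF and 1 Esrrb match, found in 2.32% and 5.24%. A match is a run of letters and was not tested as a binding site.

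The ESC peak at miR-302 is shown because it holds the start of the host transcript, near the right end of the window.
miR-302 region 1, chr3:127544804-127545103: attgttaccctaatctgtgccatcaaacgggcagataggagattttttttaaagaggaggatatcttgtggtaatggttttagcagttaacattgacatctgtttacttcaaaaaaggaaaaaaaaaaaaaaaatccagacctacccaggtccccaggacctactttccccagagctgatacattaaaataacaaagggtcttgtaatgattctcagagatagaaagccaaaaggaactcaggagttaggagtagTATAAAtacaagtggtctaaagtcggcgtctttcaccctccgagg

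The capitals are TATAAA at chr3:127545059-127545064, on the strand of *Gm51018*, with the first base 30 bases before its annotated start. Of 32851 RefSeq promoters, 1.75% held these letters on the gene's strand with the first base 25 to 35 bases before the start. Among all region windows, 14.6% held them anywhere on either strand. The range of 25 to 35 bases, like the motif, was not planned before the sequence was seen. No POU, Klf, Myc, Esrrb, AP-1, Tead or CTCF match was found in this window. The annotated promoter of *D7Ertd143e*, which had no peak, held 1 CACGTG and 1 GGAATG match and no TATAAA. The *D7Ertd143e* start lies inside the miR-290 cluster and not before it, so it is no counterpart of the *Gm51018* start. Where the primary RNA of the miR-290 cluster starts was not examined. The window of miR-302 region 1 was AT-rich, with a GC content below the lower quartile of 43.3% over all windows, whose median was 48.3%, and that of miR-302 region 2, at the gene promoters, had a GC content of 65.3% and 29 CpG sites.

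Genes that make or control miRNAs were mostly open throughout. Of 12 such genes, 10 had a peak within 1000 bp of a TSS on day 0 and 10 in ESCs, with 10 or 11 in between. Over all 21951 protein-coding genes, the share was 59.6% for day 0, 55.7% for day 1, 51.6% for day 2, 56.4% for day 3, 57.3% for day 6, 53.4% for day 9 and 50.3% for ESCs. *Ago1*, an Argonaute that carries mature miRNAs, had one on every day from 0 to 9 and none in ESCs. *Lin28b*, which blocks let-7 maturation, had none on days 0, 1 and 9 and one on days 2, 3 and 6 and in ESCs. Its paralogue *Lin28a* had none in any library.

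Of 9 genes known as targets of the seed family, 8 had a TSS peak on day 0, 7 to 9 did during doxycycline and 6 did in ESCs, beside the 59.6%, 51.6 to 57.3% and 50.3% of all protein-coding genes. *Tgfbr2*, a TGF-beta receptor, and *Rhoc*, a small GTPase, had one from day 0 to day 9 and none in ESCs. *Nr2f2*, a nuclear receptor of differentiating cells, had one on days 0, 6 and 9 and none in ESCs. *Dkk1*, a secreted Wnt inhibitor, went the other way, with none on day 0 and one on days 3 and 6 and in ESCs. *Cdkn1a*, *Lats2* and *Rbl2*, which restrain the cell cycle, and *Casp2* and *Mbd2* had one in all 7 libraries.

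Other miRNA groups had different courses. Peaks within 20 kb were found at 5 of 9 epithelial miRNAs on day 0, 6 on day 1, 2 on days 2 and 3, 5 on days 6 and 9, and 9 in ESCs. Over all 2202 miRNA genes, the share was 61.2% for day 0, 55.6% for day 1, 49.0% for day 2, 57.5% for day 3, 55.8% for day 6, 49.7% for day 9 and 47.9% for ESCs. *Mir200a*, *Mir200b* and *Mir429*, a cluster that represses Zeb factors, gained a peak on day 9 and had one in ESCs, and *Mir205* had one on day 1 and in ESCs. Of 12 proliferation miRNAs, 9 had one on day 0 and 12 in ESCs, and those that differed were *Mir106a*, *Mir20b* and *Mir363* of 1 X-linked cluster, open on day 6 and in ESCs. All 18 miRNAs of fibroblasts and differentiation had one on day 0 and 13 did in ESCs. Those without one in ESCs were *Mir199a-2* and *Mir214*, *Mir221* and *Mir222*, and *Mirlet7b*. The genes of a cluster share their peaks, so these counts rest on fewer loci than genes.

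**Figure D4:**
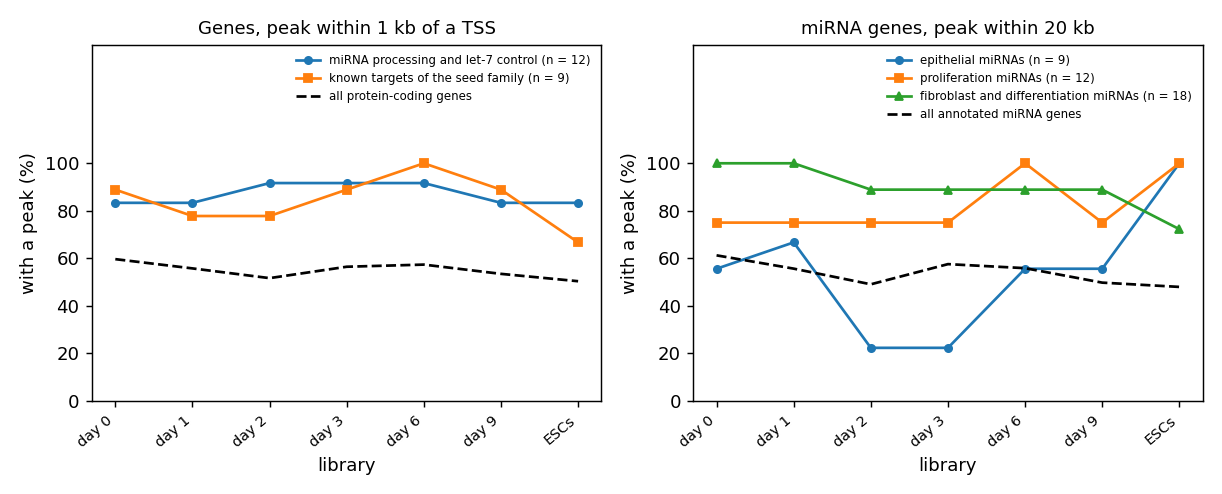
Share in percent of the genes of each list with a called peak, per library, for 2 gene lists by TSS (left) and 3 miRNA lists within 20 kb (right), with n genes in the legend and all annotated genes as the dashed line. Epithelial miRNAs went from 2 of 9 on days 2 and 3 to 9 of 9 in ESCs, and fibroblast and differentiation miRNAs from 18 of 18 on day 0 to 13 of 18 in ESCs.

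Whole libraries differed in length, with 61241 peaks on day 0, 27074 in ESCs and 33007 to 48087 between, and the smallest lists were those of ESCs, day 9 and day 2. Of 10 MEF markers, 8 had a TSS peak on day 0, 5 to 7 during doxycycline and 2 in ESCs, beside 59.6% of all protein-coding genes on day 0 and 50.3% in ESCs. *Thy1*, *Twist2*, *Zeb1*, *Zeb2*, *Col1a2* and *Col3a1* had one on day 0 and none in ESCs, whereas *Twist1* and *Snai2* had one in every library. Of 10 ESC markers, 5 had one on day 0, 2 to 6 during doxycycline and 4 in ESCs, so the counts of day 0 and of ESCs both lay near the shares of all genes. *Zfp42* and *Fgf4* had one in ESCs and none on day 0, *Tfcp2l1*, *Tdgf1* and *Utf1* had one on day 0 and none in ESCs, and *Pou5f1* and *Esrrb* had one in both. *Sox2* had one on days 1 and 6 alone and *Dppa5a* on days 1, 2 and 3 alone. *Nanog*, *Prrx1* and *Postn* had none in any library. Of 6 markers of other cell types, the endothelial genes *Cdh5* and *Pecam1* had one on day 0 and the epithelial gene *Cdh1* in ESCs. The other epithelial gene, *Epcam*, the blood gene *Ptprc* and the muscle gene *Myod1* had none in any library. What other cells add to the peaks near the clusters was not tested. The lists hold called peaks without a score, so a missing peak says that none was called and does not show closed DNA.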

How the data were processed

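ATAC-seq was measured in 7 libraries, 1 per time-point. Per the labels and the methods of the study, the authors used Trimmomatic for trimming and Bowtie2 for mapping to mm10, discarded duplicates and drew all libraries down to 1 depth with Picard, and called peaks per library with MACS2 at a q-value cut-off, shifting and extending reads around the Tn5 cut. The value of the depth is not given in the sources used here. The deposited files hold the chromosome, start and end of called peaks and no score, so the reads behind a peak are unknown.

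Peaks overlapping a cluster plus 20 kb on both sides by at least 1 bp were counted, and touching peaks of all libraries were merged. The tools were Python 3.11.15, scipy 1.17.1, matplotlib 3.10.9 and BEDTools 2.31.1, against which the overlap code was checked and tested on simulated data. Genes came from GENCODE M21, and miRNA and promoter sequences and the genome from RefSeq (GRCm38.p6, the same assembly as mm10). All peaks of chromosomes 1 to 19, X and Y ended within its chromosome lengths.

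The members and lists were chosen with earlier results of these data known. All regions in the windows and all members are named, with genes of a list named where ESCs and day 0 differed, at most 6 per list, and examples beside them. Of the genes without such a difference, only some were named, as context after their values were seen. Motifs were searched on both strands of 300 bases per region, and regions outside the chromosomes above were left out of the search. No p-value was computed, because no time-point has a replicate. The alternatives were windows of 10 and 50 kb, the span of the listed members, peak midpoints, peaks at least 300 bp wide, the 27074 widest peaks per library, merging within 300 bp, clusters joined at 2 kb, and 2500 bp around a TSS.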

Additional observations from a re-analysis of the deposited data

How the results depend on the processing

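No paired analysis was possible because only 1 library was made per time-point, and for the same reason no replicate could be left out. A stricter score could not be applied, since the lists hold none. The counts of merged regions (6 alternatives) and of list genes (35) all stayed within 1.5 times the reported count, as did 37 of 42 peak counts at miR-290 and 36 of 42 at miR-302. At miR-290, a window of 10 kb left 3 peaks in ESCs, as many as on day 1, so that ESCs no longer had the most. One of 50 kb added 1 on day 0. Peaks at least 300 bp wide left 1 on day 1 and 1 on day 9, and the widest peaks 1 on day 1. Day 0 stayed at 0 in every alternative but 50 kb. At miR-302, 50 kb gave 4 peaks for day 0, 3 for day 1, 2 for day 2, 3 for day 3, 4 for day 6, 3 for day 9 and 4 for ESCs, so that ESCs no longer had the most.

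The share of all miRNA clusters with a peak left its interval in 27 of 35 alternatives. In the order day 0, days 1, 2, 3, 6 and 9 and ESCs, it was 51.6, 44.5, 36.9, 46.1, 45.1, 38.8 and 34.5% within 10 kb, and 81.4, 77.5, 72.3, 78.9, 77.0, 72.4 and 72.5% within 50 kb. With peaks at least 300 bp wide it was 55.5, 49.2, 42.5, 51.3, 49.2, 42.5 and 37.7%. With the widest peaks it was 50.2, 49.9, 49.1, 50.4, 50.1 and 48.7% from day 0 to day 9, against 50.5% in ESCs, so that the fall from day 0 to ESCs was not seen with lists of equal length. The limit of 300 bp removed the peaks of day 9 in miR-290 region 1, of days 1 and 9 in region 3, of days 3 and 6 in region 4 and of ESCs in region 6, so that the presence of regions 1, 3 and 4 by day depended on narrow peaks, while their absence on day 0 did not.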

Other observations

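Just outside the 20 kb limit, the nearest peaks to the miR-290 cluster lay 24199 bp before it on day 0 (chr7:3194170-3194427, 258 bp) and somewhat further upstream in ESCs (chr7:3192990-3193326, 337 bp), and 1 more ESC peak lay 46377 bp after it. The day 0 peak is the one MEF peak within 50 kb of the cluster. At miR-302, a region 26687 bp after the cluster (chr3:127572494-127573018) was open in every library but ESCs, and one 34890 bp after it (chr3:127580697-127581234) in ESCs alone. A region before it (chr3:127498796-127499401) was open on days 0, 3, 6 and 9.

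The 11 miRNA clusters without a peak within 20 kb on day 0 and with one in each other library were miR-290 and 10 single genes. Of the 4 among them with a Mir symbol, *Mir128-2* had 1 peak on days 1 and 2, 2 on days 3, 6 and 9 and 1 in ESCs, and *Mir1895* had 2 on each doxycycline day and 1 in ESCs. *Mir7239* had 2 on days 1, 2, 3 and 6, 1 on day 9 and 1 in ESCs, and *Mir6380* had 1 on day 2, 2 on the other doxycycline days and 1 in ESCs. Among the 11, the miR-290 cluster had the most ESC peaks, 5, against 1 or 2 at the others.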
